A study of Mus musculus with 72 samples.

Results

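Gnb5, the 4 R7-RGS genes Rgs6, Rgs7, Rgs9 and Rgs11, and the 3 genes for their membrane partners, Rgs7bp, Rgs9bp and Gpr158, were followed through RNA-seq read counts of mouse heart and brain. These 8 genes were chosen by name, and each was found once among the 53715 gene identifiers counted. The samples came from 18 male mice of 18 weeks on the C57BL/6J background, 6 each of Gnb5-/-, Gnb5+/- and Gnb5+/+, the mutant allele being a germline deletion of exon 3 of Gnb5 in a line recovered from frozen sperm. Atria and ventricles were sampled in the 3 genotypes alike. The cerebellum, the hippocampus and the cerebral cortex were sampled in Gnb5-/- and Gnb5+/+ mice, which gave 72 libraries in 12 groups of 6 mice. No other allele is named. Per the study's methods, the parents of Gnb5-/- pups received enriched pellets and litters with Gnb5-/- pups had softened food around weaning, so early feeding may have differed between mice. Each tissue was taken whole: both atria with the nodal tissue in them, both ventricles, the cerebellum, the hippocampi of both hemispheres and the cortex. A level is therefore a sum over many cell types, and fewer cells of a type and less RNA per cell cannot be told apart. The question was first where each gene is expressed in wild-type mice, and then whether the loss of Gnb5 message is accompanied by a change in any of the others.

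Gβ5, the product of Gnb5, is an atypical G protein β subunit. In place of a γ subunit it binds the GGL domain of the R7 regulators of G protein signalling, RGS6, RGS7, RGS9 and RGS11, which speed the hydrolysis of GTP on Gαi and Gαo and so shorten signals from inhibitory receptors. The R7-RGS proteins and Gβ5 stabilise each other as proteins and are degraded when the partner is missing, a step that read counts do not measure. R7BP, encoded by Rgs7bp, and R9AP, encoded by Rgs9bp, tether these complexes to membranes, and GPR158 is an orphan receptor that binds RGS7. RGS6 with Gβ5 is known for limiting muscarinic slowing of the heart, RGS9 with R9AP for ending the light response of photoreceptors, a longer RGS9 form for dopamine signalling in the striatum, and RGS7 and RGS11 for the retinal ON bipolar cell.

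The targeted gene, Gnb5 (ENSMUSG00000032192), lies on chromosome 9 at 9:75306288-75345876 of GRCm38, plus strand. The sources used here give no coordinates for the deleted exon, and the annotation allows a pair of candidates, shown because the Gnb5 reads left in Gnb5-/- mice are counted over the whole gene. In the transcript model of 12 exons, exon 3 is at 9:75327133-75327269 and all of its 137 bases are coding, which leaves a remainder of 2 on division by 3. In the model of 13 exons, exon 3 is at 9:75314272-75314383 and has 112 bases, with a remainder of 1. Capitals mark the exon and lower case the 12 transcript bases on either side, both from GENCODE M21 transcripts.
Gnb5 exon 3, 12-exon model: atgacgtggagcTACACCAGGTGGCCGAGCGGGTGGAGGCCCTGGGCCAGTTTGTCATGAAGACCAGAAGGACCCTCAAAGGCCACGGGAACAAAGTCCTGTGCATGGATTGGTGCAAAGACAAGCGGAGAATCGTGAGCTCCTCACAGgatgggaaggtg
Gnb5 exon 3, 13-exon model: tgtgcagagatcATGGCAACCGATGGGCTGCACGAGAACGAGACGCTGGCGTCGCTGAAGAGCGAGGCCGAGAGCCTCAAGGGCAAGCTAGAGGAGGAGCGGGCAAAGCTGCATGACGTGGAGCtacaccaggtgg
The longer stretch is also exon 4 of the 13-exon model, where it makes up 7.60% of the 1803 transcript bases. Gene totals do not say where in the gene the remaining reads fall.

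The other members lie on 7 other chromosomes of GRCm38. Rgs6 (ENSMUSG00000021219) is at 12:82588292-83162056 on the plus strand, Rgs7 (ENSMUSG00000026527) at 1:175059087-175492500 on the minus strand, Rgs9 (ENSMUSG00000020599) at 11:109225355-109298129 on the minus strand and Rgs11 (ENSMUSG00000024186) at 17:26202951-26211324 on the plus strand. Rgs7bp (ENSMUSG00000021719) is at 13:104945904-105054930 on the minus strand, Rgs9bp (ENSMUSG00000056043) at 7:35578993-35585582 on the minus strand and Gpr158 (ENSMUSG00000045967) at 2:21367542-21830547 on the plus strand. The loci range from 6.59 kb for Rgs9bp to 573.765 kb for Rgs6. Exons of 4 members overlap exons of a gene on the opposite strand: Gnb5 with Gm19531 over 248 bases, Gpr158 with Gm13327 over 601, Rgs11 with Arhgdig over 138 and Rgs6 with Gm29530 over 77.

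Between 29204390 and 48807435 reads per library were counted on genes (median 38864900), and no 2 libraries held identical counts. The tissue labels were checked against markers, given as summed CPM (reads of a gene as a share of those counted in the library, scaled by the TMM method). Neuronal markers summed to 2995 to 3930 CPM in the wild-type brain libraries and to at most 13.9 CPM in the wild-type heart libraries. Atrial muscle markers summed to 21734 to 29858 CPM in wild-type atria and 129.6 to 327.1 CPM in ventricles. The 4-gene hippocampal list was higher in heart than in hippocampus through Dsp, a desmosome gene, while Spink8 averaged 12.2 CPM in hippocampus and was at 0 in the wild-type heart libraries. Among Gnb5-/- libraries, the cerebellum of mouse 12 held 616 CPM of choroid plexus markers against 2.43 to 6.23 in the other 11 cerebellar libraries, and the cortices of mice 14 and 3 held 335 and 197 CPM of cerebellar markers against 111.9 to 139.5 in the other 10. The cerebellum of mouse 12 also stood apart in other genes. Its cardiomyocyte list summed to 65.6 CPM against 213 to 267 in the other 11 libraries. Outside the range of those libraries lay 4 of the 8 members and 16 of the 20 partner genes described further on. The 4 members and 10 of the partner genes were below that range, and 6 partner genes were above it. The cortex of mouse 14 also held 58.8 CPM of atrial muscle markers against 5.07 to 10.4 in the other 11. The cardiomyocyte list was low in the cortices of mice 14 and 3 too, at 79.7 and 119 CPM against 270 to 316 in the other 10. Members and partner genes of those cortices were not set against the range of the other cortices in this way. The share of reads assigned to no gene was 8.02% in the cerebellum of mouse 12. It was 6.86% and 8.32% in the cortices of mice 14 and 3, and at least 11.7% in every other brain library. Alignments that were not unique made up 24.3%, 27.5% and 23.1% of all alignments in these Gnb5-/- libraries, in that order. In every other brain library of either genotype they made up at most 19.3%. The cause was not tested. High sums of markers of other tissues, in contrast, were not limited to Gnb5-/- mice. Choroid plexus markers summed to 1160 and 411 CPM in the hippocampi of Gnb5+/+ mice 7 and 17 and 215 in that of Gnb5-/- mouse 10, against 25 to 71.7 in the other 9. In cortex they reached 526 and 256 CPM in Gnb5-/- mice 5 and 3 and 215 and 114 in Gnb5+/+ mice 16 and 17, against 8.22 to 79.4 in the other 8. Ventricular muscle markers summed to 50.8 CPM in the hippocampus and 13.2 in the cerebellum of Gnb5+/+ mouse 8, below 1 CPM in the rest of those regions. Results were repeated without the libraries of mice 12, 14, 3 and 5 and without the hippocampi of mice 7 and 17, and are given where a call changed.

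In wild-type mice, Gnb5 was expressed in all 5 tissues and R7-RGS genes were divided among them: Rgs6 led in both heart tissues, Rgs7 in cerebellum, Rgs7 and Rgs11 in hippocampus, and all 4 were present in cortex. Levels were set on a per-length scale (RPKM, TMM-normalized CPM per kilobase of union exon length), the scale on which different genes can be compared, and are means ± SD of 6 mice. Tissues were compared in the 30 wild-type libraries with edgeR's quasi-likelihood test and Benjamini-Hochberg adjustment over 19477 genes, a difference being called when the adjusted p fell under 0.05. The 5 tissues came from the same 6 mice, and this fit had no term for the mouse, so its p-values leave out that pairing. A repeat with the mouse as a block changed no call of a member between tissues. Of the 8 members, 7 differed between the heart tissues, where 51.6% of all genes did. Against atria, 7 members differed in cerebellum (background 86.3%), 8 in hippocampus (86.4%) and 8 in cortex (87%). Against ventricles the counts were 6 in cerebellum (86.6%), 8 in hippocampus (86.9%) and 8 in cortex (87.4%). Within the brain they were 8 between hippocampus and cerebellum (68.3%), 7 between cortex and cerebellum (69.1%) and 5 between cortex and hippocampus (33.5%). With most genes differing between heart and brain, the counts for those pairs are close to the background and the sizes of the differences carry the description. Within an organ the share of members was above the background, 87.5% between the heart tissues and 62.5% to 100% between brain regions. This excess, over 8 genes chosen by name, was not tested. The median of all genes stood 0.15 to 0.26 higher (log2) in brain than in heart under TMM, and 0.78 to 1.33 higher when library totals alone were used. For ventricles minus atria the median was -0.07 under TMM and -0.455 with library totals alone. Differences of that order, between heart and brain or between the heart tissues, depend on the scaling.

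**Figure D1:**
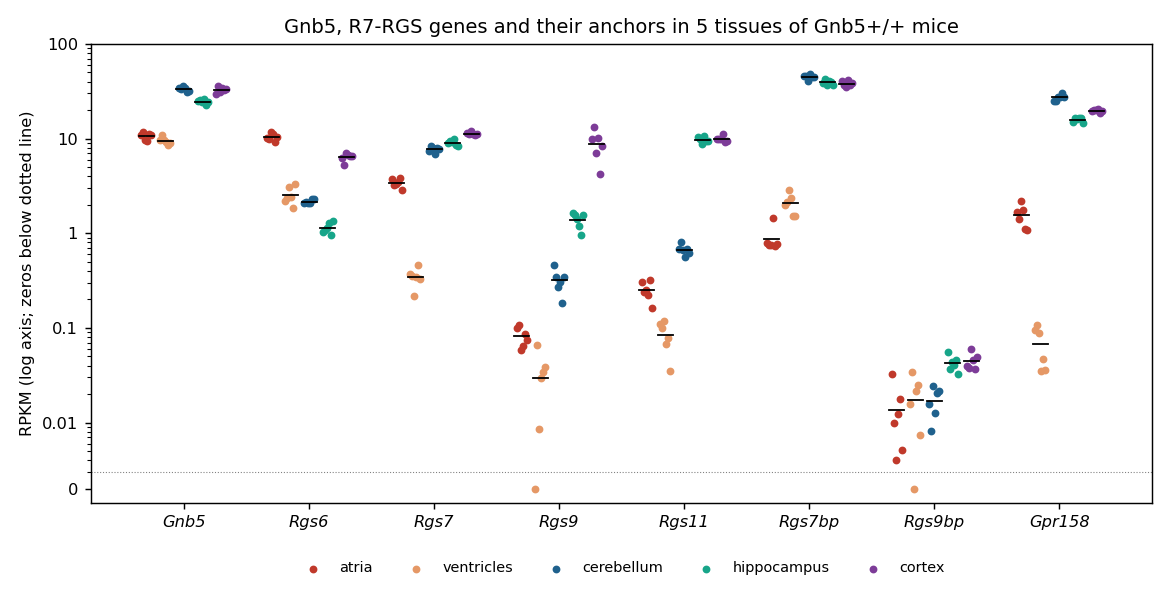
RPKM (log axis) of each member in the 30 libraries of Gnb5+/+ mice, 1 point per mouse, coloured by tissue, with a line at the mean of 6 mice and zeros drawn below the dotted line. Gnb5 runs from means of 9.52 in ventricles to 33.5 in cerebellum, and Gpr158 from 0.0679 to 27.3.

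Gnb5, the subunit common to all R7-RGS complexes, had a level of 33.5 ± 1.86 RPKM in cerebellum (lowest 30.9, median 33.8, highest 36.3), 32.8 ± 2.35 in cortex (29.6, 32.9, 36.2) and 24.6 ± 1.13 in hippocampus (22.9, 24.5, 26.2). In heart it stood at 10.7 ± 0.935 RPKM in atria (9.47, 10.97, 11.9) and 9.52 ± 0.769 in ventricles (8.65, 9.46, 10.9). Every brain library lay above every heart library, while the atrial and ventricular ranges overlapped. Cerebellum and cortex did not differ beyond their spread (log2 -0.10, 95% interval -0.23 to 0.02, adjusted p = 0.153), and the other neighbours in this order did. The step from atria to ventricles was the smallest of those called under TMM (log2 -0.22, SE 0.066, adjusted p = 0.00625), and from atria to cerebellum Gnb5 was 3.25-fold higher (adjusted p = 2.68e-21). The rank of the step between the heart tissues depends on the processing. Over the settings tried it ranged from log2 -0.60 to -0.16, and cortex minus hippocampus from 0.37 to 0.44.

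Rgs6, the R7 member known for its role in the atria, was the only one of the 4 R7-RGS genes with its highest level in heart. Its RPKM was 10.4 ± 0.865 in atria (lowest 9.25, median 10.3, highest 11.7), 6.40 ± 0.611 in cortex (5.27, 6.56, 7.05), 2.54 ± 0.570 in ventricles (1.84, 2.37, 3.33), 2.16 ± 0.101 in cerebellum (2.07, 2.12, 2.30) and 1.14 ± 0.147 in hippocampus (0.951, 1.11, 1.35). The atrial libraries lay above all others without overlap. Rgs6 was 4.25-fold higher in atria than in ventricles (log2 -2.09 for ventricles minus atria, SE 0.104, adjusted p = 4.03e-17) and 5.56-fold higher in cortex than in hippocampus (adjusted p = 3.42e-18). Ventricles and cerebellum did not differ (log2 -0.12, 95% interval -0.32 to 0.08, adjusted p = 0.257), although with library totals alone cerebellum was higher by 0.95 on the log2 scale (adjusted p = 2.38e-09). With that scaling the calls of Rgs6 between cortex and atria (log2 -0.05, adjusted p = 0.638) and between hippocampus and ventricles (log2 -0.10, adjusted p = 0.415) were lost.

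Rgs7, the R7 member bound by GPR158, was lowest in ventricles and highest in the brain regions. It was at 11.3 ± 0.395 RPKM in cortex (lowest 10.8, median 11.2, highest 12.002), 9.10 ± 0.535 in hippocampus (8.45, 9.12, 9.85), 7.74 ± 0.541 in cerebellum (6.83, 7.86, 8.44), 3.42 ± 0.345 in atria (2.88, 3.40, 3.803) and 0.347 ± 0.0791 in ventricles (0.219, 0.351, 0.465). All neighbours in this order differed. The contrast between the heart tissues was large, with atria 10.2-fold above ventricles (log2 -3.35, SE 0.098, adjusted p = 7.35e-23), and that between hippocampus and cerebellum was small (log2 0.17, adjusted p = 0.0383, lost with library totals alone at 0.199).

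Rgs9, the photoreceptor and striatal member, was highest in cortex, where it varied widely between mice. Its RPKM was 8.85 ± 3.09 in cortex (lowest 4.22, median 9.14, highest 13.3), 1.39 ± 0.261 in hippocampus (0.971, 1.49, 1.65), 0.318 ± 0.0914 in cerebellum, 0.0818 ± 0.0194 in atria and 0.0294 ± 0.0232 in ventricles, where 1 library had no read. Cortex was 6.29-fold above hippocampus (log2 2.65, SE 0.211, adjusted p = 1.03e-11) and 26.5-fold above cerebellum (adjusted p = 1.29e-17). The summed level of 6 striatal markers ranged from 168 to 376 CPM over the wild-type cortical libraries. Over the 12 cortical libraries of both genotypes, its log2 level and that of Rgs9 had a Pearson r of 0.851 (permutation p = 0.00086) and a Spearman rho of 0.860 (permutation p = 0.00065). This pair was picked after its values were seen, from 1560 correlations of a member with a marker list, 520 of them pooled over genotypes, among which it had rank 17 by the size of r. Its permutation p adjusted over all 1560 was 0.168, and 0 of the 1560 passed at 0.05. Without the 2 libraries farthest from the median of the striatal sum r was 0.563. By genotype r was 0.965 over the 6 Gnb5+/+ libraries (exact permutation p = 0.00139) and 0.481 over the 6 Gnb5-/- libraries (exact permutation p = 0.324), and the difference between these values was not tested. The part of striatal tissue in the Rgs9 level was not tested. Atria and ventricles differed (log2 -1.41, SE 0.509, adjusted p = 0.0207), on 10 to 21 reads per atrial library and 0 to 11 per ventricular library.

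Rgs11, the second R7 member of the retinal ON bipolar cell, was found mainly in hippocampus and cortex. It stood at 9.93 ± 0.730 RPKM in cortex (lowest 9.19, median 9.84, highest 11.3) and 9.79 ± 0.677 in hippocampus (8.79, 9.69, 10.5), which did not differ (log2 0.01, 95% interval -0.18 to 0.19, adjusted p = 0.974). In cerebellum it was at 0.671 ± 0.0802 RPKM (0.568, 0.670, 0.808), 14.02-fold below hippocampus (log2 3.81, SE 0.108, adjusted p = 4.22e-24). The cerebellar libraries were thus nearer to atria (0.251 ± 0.0573 RPKM) than to the other brain regions. Ventricles held the least, 0.0848 ± 0.0308 RPKM, lower than atria by a log2 difference of -1.61 (SE 0.197, adjusted p = 3.11e-08).

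The make-up of R7-RGS message therefore differed by tissue. Rgs6 made up 73.5 ± 3.19% of the summed R7-RGS RPKM in atria and 84.0 ± 5.19% in ventricles, with Rgs7 at 24.1 ± 2.70% and 12.1 ± 4.43%. In cerebellum the larger share was that of Rgs7, 71.0 ± 1.06%, followed by Rgs6 at 19.9 ± 1.16%. Hippocampus was shared by Rgs11 (45.7 ± 1.71%) and Rgs7 (42.5 ± 1.61%), and Rgs6 held only 5.32 ± 0.674%. Cortex was the most even tissue, with Rgs7 at 31.2 ± 2.76%, Rgs11 at 27.3 ± 1.75%, Rgs9 at 23.8 ± 6.76% and Rgs6 at 17.7 ± 2.74%. These shares are descriptions with no test, and they carry the union exon length of each gene.

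The supply of Gnb5 message relative to its partners also varied. The summed R7-RGS level was 36.5 ± 3.24 RPKM in cortex, 21.4 ± 1.14 in hippocampus, 14.2 ± 0.787 in atria, 10.9 ± 0.640 in cerebellum and 3.00 ± 0.496 in ventricles. The ratio of Gnb5 to this sum was 3.24 ± 0.538 in ventricles and 3.09 ± 0.286 in cerebellum, 1.15 ± 0.0208 in hippocampus, 0.905 ± 0.0887 in cortex and 0.759 ± 0.102 in atria. The ventricular and cerebellar libraries (lowest 2.42) lay above all hippocampal, cortical and atrial libraries (highest 1.18).

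**Figure D2:**
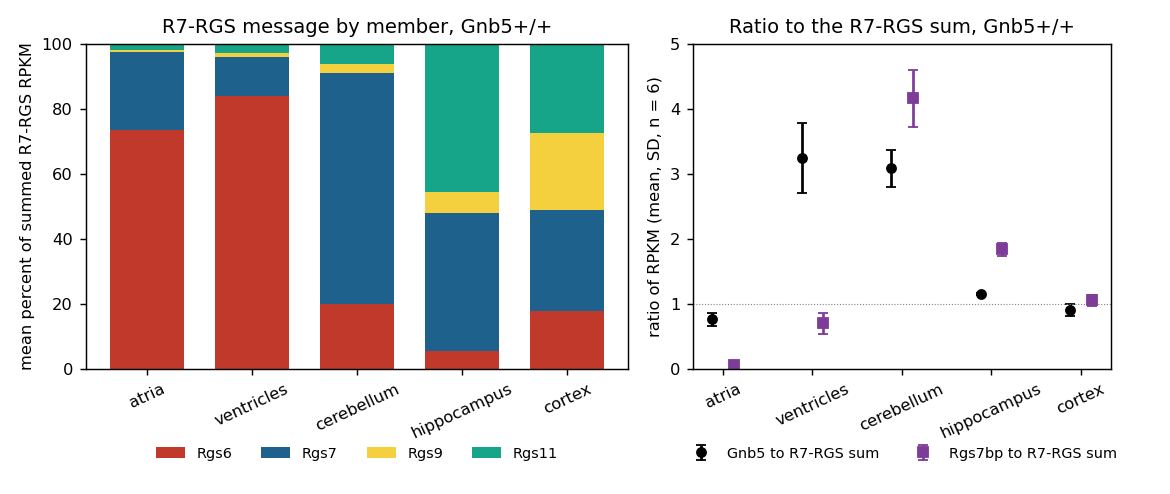
Left, mean percent of the summed R7-RGS RPKM held by each gene in 6 Gnb5+/+ mice per tissue; right, ratio of Gnb5 (circles) and of Rgs7bp (squares) to the summed R7-RGS RPKM, mean and SD of 6 mice, with a dotted line at 1. Rgs6 fills most of the heart bars, Rgs7 most of the cerebellar bar, and the Rgs7bp ratio falls to 0.0615 in atria.

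Among the anchors, Rgs7bp was abundant in every brain region and scarce in heart. Its RPKM was 45.2 ± 2.67 in cerebellum (lowest 40.4, median 45.6, highest 48.4), 39.2 ± 2.29 in hippocampus (36.5, 39.2, 42.5), 38.2 ± 2.36 in cortex (35.1, 37.8, 41.2), 2.07 ± 0.524 in ventricles (1.52, 2.07, 2.88) and 0.877 ± 0.285 in atria (0.734, 0.767, 1.46). Ventricles exceeded atria by a log2 difference of 1.21 (SE 0.137, adjusted p = 6.87e-09), the only member called higher in ventricles, as 21.8% of all genes were. The atrial library nearest to the ventricular range, that of mouse 16 at 1.46 RPKM, also had the highest summed level of ventricular muscle markers, 1334 CPM, and the atrial library of mouse 18 had 981 CPM with an Rgs7bp level like the rest. The part of ventricular tissue in the Rgs7bp level of mouse 16 was not tested. Hippocampus and cortex did not differ (adjusted p = 0.77). Both were slightly below cerebellum (log2 -0.26, adjusted p = 0.0499, and -0.31, adjusted p = 0.0184), differences that RLE size factors left uncalled (adjusted p = 0.131 and 0.0701). That between hippocampus and cerebellum was also lost without the hippocampi of mice 7 and 17 (adjusted p = 0.109).

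Rgs9bp, the photoreceptor anchor, was near the limit of counting everywhere. It was counted at 0 to 20 reads per wild-type library, and its mean level lay between 0.0136 RPKM in atria and 0.0448 in cortex. Hippocampus and cortex (12 to 20 reads) were above cerebellum (3 to 9 reads) by log2 differences of 1.23 (SE 0.321, adjusted p = 0.0012) and 1.29 (SE 0.319, adjusted p = 0.000675). Among atria, ventricles and cerebellum no difference was called with TMM (adjusted p from 0.348 to 0.987). With library totals alone cerebellum was called higher than atria (log2 1.08, adjusted p = 0.0168) and ventricles (log2 1.06, adjusted p = 0.0209), so these comparisons depend on the scaling.

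Gpr158, the orphan receptor, had the largest ratio between its highest and lowest tissue means among the 8 members. It was at 27.3 ± 1.90 RPKM in cerebellum (lowest 24.99, median 27.8, highest 30.01), 19.7 ± 0.746 in cortex (18.4, 19.8, 20.5) and 15.9 ± 0.801 in hippocampus (14.7, 16.3, 16.6), each step being called, that between cortex and hippocampus narrowly (log2 0.30, adjusted p = 0.0421, 0.0818 with no filter on low counts and 0.112 without the hippocampi of mice 7 and 17). In heart it was at 1.54 ± 0.431 RPKM in atria (1.09, 1.55, 2.20) and 0.0679 ± 0.0321 in ventricles (0.0350, 0.0673, 0.107), a 23.0-fold difference (log2 -4.52, SE 0.194, adjusted p = 9.78e-19). The heart tissues thus held opposite ratios of the partner genes: Gpr158 to Rgs7bp was 1.84 ± 0.630 in atria and 0.0329 ± 0.0136 in ventricles, against 0.406 to 0.606 on average in the brain regions. The summed anchor level was 72.4 ± 2.96 RPKM in cerebellum, 57.9 ± 2.65 in cortex and 55.2 ± 2.87 in hippocampus, and only 2.43 ± 0.576 in atria and 2.16 ± 0.535 in ventricles.

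Over the 30 wild-type libraries, which fall into 5 tissues and so mostly compare tissues, the log2 levels of Rgs7 and Gpr158 had a Pearson r of 0.969, Gnb5 and Rgs7bp 0.942, Rgs9 and Rgs11 0.928, and Gnb5 and Rgs6 -0.26. Among 13938 protein-coding genes, those most like Gnb5 were Ckb (r = 0.994), Plcxd2 and Camkk2, those most like Rgs7 were Usp29 (0.994), Gnao1 and Sox5, and those most like Rgs11 were Shisal1 (0.991), Cpe and Tusc3. Gnao1 encodes the Gαo subunit. For Rgs9 they were Camk2n1 (0.976), Habp4 and Lypd6b, for Rgs7bp Fez1 (0.994), Efr3b and Cds1, and for Gpr158 Spock2 (0.993), Fgfr2 and Adcy1. The closest genes to Rgs6, Gucy1a1 (0.938), Igfbp6 and Ypel2, were less alike, and none was sought for Rgs9bp, whose mean stayed below 1 CPM in every tissue. These values are descriptions over tissues and libraries, with no test.

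Genotypes were compared within each tissue with the same test, on TMM-normalized CPM scaled within the tissue. Of the 8 members, 6 had enough reads to be tested in ventricles, 7 in cerebellum and in atria, and 8 in hippocampus and cortex. Those left out were Rgs9bp in heart and cerebellum and Rgs9 in ventricles. In each comparison 1 member was called, Gnb5, which was lower. The share of all genes called between Gnb5-/- and Gnb5+/+ was 0.253% in atria, 0.188% in ventricles, 0.0817% in cerebellum, 0.165% in hippocampus and 0.0557% in cortex. Between Gnb5+/- and Gnb5+/+ it was 0.0124% in atria and 0.0202% in ventricles, and between Gnb5-/- and Gnb5+/- 0.0494% and 0.0874%. The median log2 difference of the members tested, Gnb5 among them, in the 5 Gnb5-/- to Gnb5+/+ comparisons lay between -0.16 (cortex) and 0.20 (ventricles), while that of all genes stayed within 0.01 of 0. The cortical value depends on the libraries of mice 3 and 14. Without them the log2 differences there were -0.16 (Rgs9bp), -0.07 (Rgs6), 0.01 (Rgs11 and Rgs7bp), 0.02 (Rgs7), 0.06 (Gpr158) and 0.16 (Rgs9), besides Gnb5. The genotype comparisons share libraries in heart, so their values are set side by side and not as separate evidence.

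Gnb5 itself checked the labels in every library. In atria the wild-type libraries lay at 26.6 to 32.9 CPM (median 30.3), those of Gnb5+/- mice at 13.8 to 18.9 (median 15.1) and those of Gnb5-/- mice at 1.49 to 2.60 (median 1.77). In ventricles it was 16.9 to 21.02 (median 18.1), 8.29 to 11.6 (median 9.04) and 0.532 to 1.41 (median 0.920). In both tissues the 3 genotypes did not overlap, and no library went against its label. Groups did not overlap for 0.612% of all genes between Gnb5-/- and Gnb5+/+ atria, 0.198% between Gnb5+/- and Gnb5+/+ and 0.445% between Gnb5-/- and Gnb5+/-, and for 0.538%, 0.168% and 1% in ventricles. In the brain Gnb5 was at 136.9 to 160.6 CPM in Gnb5+/+ and 19.3 to 22.7 in Gnb5-/- cerebellum, 93.96 to 105.7 and 11.5 to 13.8 in hippocampus, and 122.6 to 147.7 and 13.7 to 19.5 in cortex. There too the genotypes were apart, as for 1.1% of all genes in cerebellum, 0.648% in hippocampus and 0.601% in cortex.

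The fall of Gnb5 in Gnb5-/- mice was incomplete in every tissue and deeper in heart. The mean was 6.18% of wild type in atria (log2 -4.01, SE 0.126, adjusted p = 3.2e-14), 5.09% in ventricles (log2 -4.26, SE 0.169, adjusted p = 9.72e-13), 13.9% in cerebellum (log2 -2.84, SE 0.065, adjusted p = 4.23e-11), 12.9% in hippocampus (log2 -2.95, SE 0.047, adjusted p = 2.21e-14) and 11.8% in cortex (log2 -3.09, SE 0.0998, adjusted p = 4.57e-09). The reads behind these values were 61 to 128 per Gnb5-/- atrial library and 16 to 66 per ventricular library, against 425 to 1007 in the brain. In 1 fit of the 60 libraries of both genotypes, with each mouse as a block, the mean heart effect was below the mean brain effect by a log2 difference of -1.18 (SE 0.093, 95% interval -1.36 to -0.99, adjusted p = 1.18e-12), which 0.408% of 20358 genes passed. Differences of the Gnb5 effect between tissues of the same organ were not called: ventricles minus atria -0.24 (SE 0.153), cerebellum minus cortex 0.27 (SE 0.131), cerebellum minus hippocampus 0.11 (SE 0.131) and hippocampus minus cortex 0.16 (SE 0.131), with adjusted p from 0.628 to 1.

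Gnb5+/- mice were near the midpoint in both heart tissues. Atria held 52.3% of the wild-type mean (95% interval of the fitted ratio 45.2% to 60.7%, log2 -0.93, adjusted p = 0.000416) and ventricles 51.9% (42.8% to 62.9%, log2 -0.95, adjusted p = 0.0102). All 6 mice of each lay below every wild-type mouse (two-sided exact permutation test p = 0.00216, the smallest that 6 against 6 allows). The ventricular call was lost without the Gnb5+/- library of mouse 11 (adjusted p = 0.0545) or that of mouse 6 (0.0515), with the fold change between -1.01 and -0.91 whichever library was left out. From Gnb5+/- to Gnb5-/- mice the level dropped by 3.08 on the log2 scale in atria (adjusted p = 3.3e-12) and fell by 3.31 in ventricles (adjusted p = 1.07e-10).

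**Figure D3:**
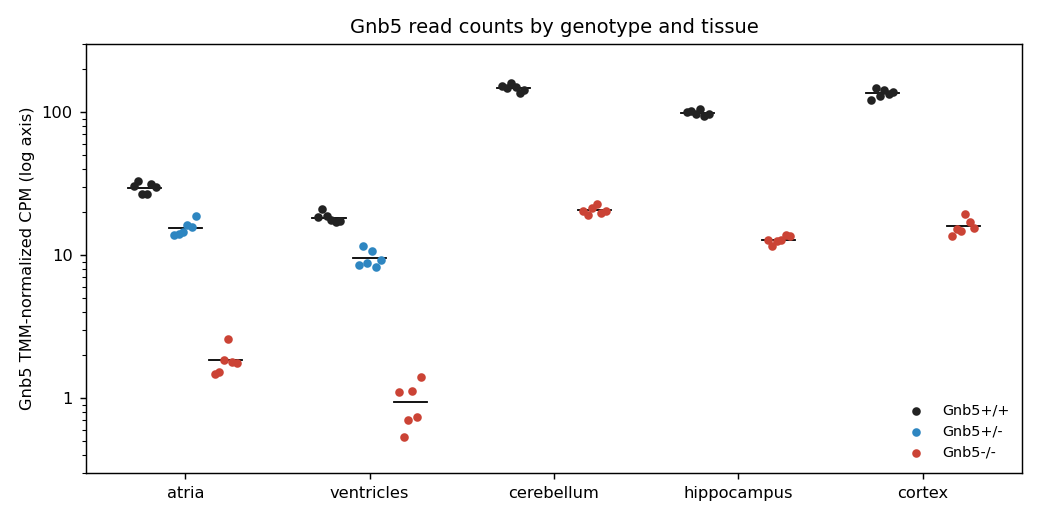
TMM-normalized CPM of Gnb5 (log axis), 1 point per mouse, in black for Gnb5+/+, blue for Gnb5+/- and red for Gnb5-/-, with a line at the mean of 6 mice. The genotypes separate in every tissue, and the red points lie at 0.532 to 2.60 CPM in heart and 11.5 to 22.7 CPM in brain.

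The gene Gm19531, on the strand opposite to Gnb5, was lower in Gnb5-/- hippocampus, at 0.948 ± 0.123 CPM against 1.87 ± 0.477 (log2 -0.98, SE 0.176, adjusted p = 0.0403). In cerebellum its difference was -0.83 (adjusted p = 0.583) and in cortex -0.70 (adjusted p = 0.474), and it did not pass the filter in heart. Its exons share 248 bases with Gnb5. The libraries were stranded, but the strand setting of the counting is not given in the sources used here, so reads of the pair cannot be assigned with certainty.

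No R7-RGS gene was called between genotypes in any tissue. At an unadjusted p under 0.05, the edgeR test picked besides Gnb5 1 tested member in Gnb5-/- atria against wild type (Gpr158, with 8.15% of all genes), 2 in ventricles (Rgs6 and Rgs7, 4.78%), 2 in cerebellum (Gpr158 and Rgs11, 5.85%) and 0 in hippocampus (7.7%) and cortex (7.39%). It picked 0 besides Gnb5 in Gnb5+/- atria (7.22%) and 1 in Gnb5+/- ventricles (Rgs7, 4.84%), and between Gnb5-/- and Gnb5+/- 1 in atria (Gpr158, 4.86%) and 0 in ventricles (8.79%). DESeq2 called, besides Gnb5, Gpr158 in Gnb5-/- atria against either other genotype and no member elsewhere. Its calls over all genes between Gnb5-/- and Gnb5+/+ came to 0.681% in atria, 0.424% in ventricles, 0.288% in cerebellum, 0.592% in hippocampus and 0.14% in cortex, between Gnb5+/- and Gnb5+/+ to 0.0433% and 0.0202% in the heart tissues, and between Gnb5-/- and Gnb5+/- to 0.182% and 0.464%. Rgs6 in Gnb5-/- atria was at 102.1 ± 9.74 CPM (lowest 91.5, median 100.6, highest 115.5) against 93.2 ± 7.94 in Gnb5+/+ (82.6, 91.4, 104.5) and 101 ± 7.36 in Gnb5+/- (86.7, 103.2, 107.9). The 3 ranges overlapped, and the 95% interval of the Gnb5-/- to Gnb5+/+ ratio ran from 99.1% to 121% (adjusted p = 0.701), so that a change of Rgs6 message beyond these bounds was not seen. In ventricles Rgs6 was at 19.5 ± 3.15 against 15.7 ± 3.48 CPM (log2 0.31, SE 0.125, adjusted p = 0.877, exact permutation p = 0.0736).

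Rgs7 had its largest difference in ventricles, where it is least abundant. It was at 2.22 ± 0.744 CPM in Gnb5-/- mice (lowest 1.03, median 2.16, highest 3.33), 1.85 ± 0.398 in Gnb5+/- (1.199, 1.86, 2.37) and 1.29 ± 0.301 in Gnb5+/+ (0.824, 1.298, 1.76). The groups overlapped, with log2 differences from wild type of 0.77 (SE 0.232, adjusted p = 0.431, exact permutation p = 0.0303) and 0.52 (SE 0.235, adjusted p = 0.961, exact permutation p = 0.0325). Summed neuronal markers were at 5.26 to 7.44 CPM in Gnb5-/- ventricles and 6.72 to 9.90 in wild type. Only 2 of these 5 markers were counted in every library of either group. Their part in the Rgs7 difference was not tested. In the other tissues the Rgs7 ratio to wild type lay between 92.9% and 104%, with intervals from 85.1% to 119%. The Rgs7 effect in heart minus that in brain was 0.45 (SE 0.114, adjusted p = 0.0585), and it passed the threshold with RLE size factors (0.46, adjusted p = 0.048) and without the cerebellar library of mouse 12 and the cortical library of mouse 14 (0.43, adjusted p = 0.0418), settings in which 0.432% and 0.76% of all genes were called.

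Rgs11 was lower in Gnb5-/- cerebellum, at 3.19 ± 0.301 CPM (lowest 2.80, median 3.24, highest 3.56) against 4.01 ± 0.479 (3.38, 4.01, 4.81), without passing the adjusted threshold (log2 -0.33, SE 0.113, adjusted p = 0.583, exact permutation p = 0.00649). The ranges overlapped slightly. Without mouse 12 the difference was -0.29, with an adjusted p of 0.316. In Gnb5-/- cortex Rgs11 ranged from 20.3 to 60.8 CPM around a mean 85.3% of wild type (adjusted p = 0.542), and without the libraries of mice 3 and 14 its log2 difference was 0.01 (adjusted p = 0.997). The lowest of these cortical values was that of mouse 14. Among the cortical libraries, that one held the most cerebellar marker message (335 CPM) and the lowest share of reads assigned to no gene (6.86%). The cause of that Rgs11 value was not tested. Hippocampus gave the tightest comparison, 53.9 ± 3.35 against 53.4 ± 3.60 CPM, with an interval of the ratio from 93.9% to 108%.

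Rgs9 did not differ in any tissue where it was tested. In cortex it was at 81.8 ± 16.03 CPM in Gnb5-/- mice (lowest 56.6, median 82.7, highest 98.6) and 75.0 ± 25.8 in Gnb5+/+ (35.8, 77.6, 111.1), with an interval of the ratio from 79.9% to 149% (adjusted p = 0.747). The summed striatal markers of these libraries were 273.7 to 384.1 CPM in Gnb5-/- and 168 to 376 in Gnb5+/+ mice. In atria the ratio was 139% (89.4% to 215%) on 14 to 69 reads per Gnb5-/- library. The 69 reads were those of mouse 1, and the other Gnb5-/- atria had 14 to 26. That library also held 25.5 CPM of neuronal markers against 5.44 to 13.9 in the other 17 atrial libraries. Their part in its Rgs9 level was not tested. Over the settings tried the atrial log2 difference ranged from 0.07 to 0.57.

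**Figure D4:**
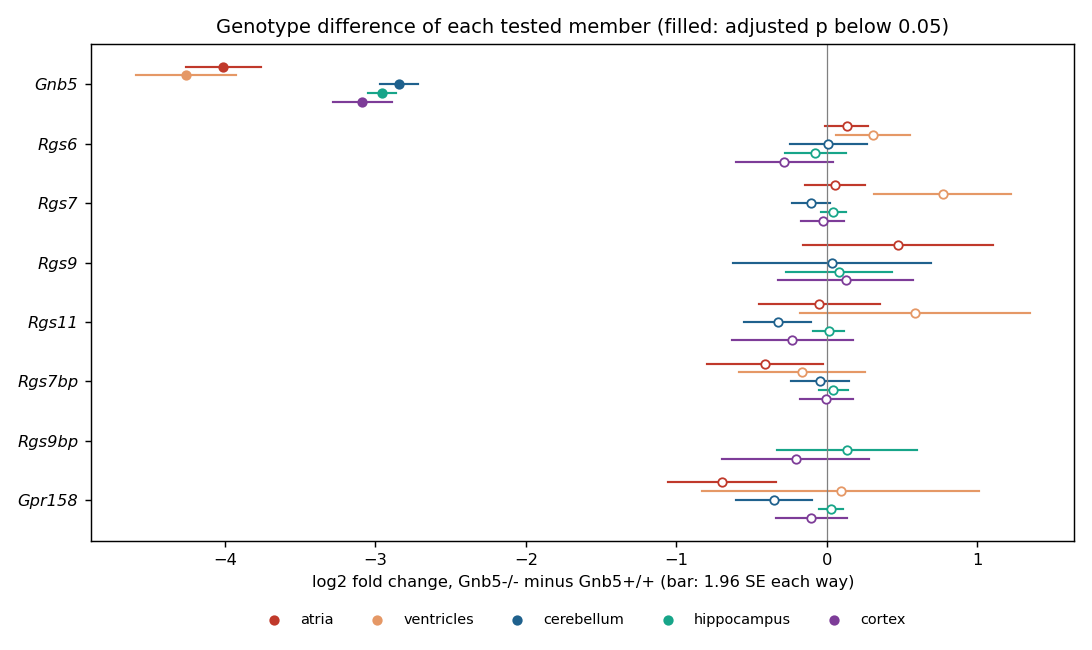
log2 fold change of Gnb5-/- against Gnb5+/+ for each member that passed the filter, by tissue, with bars for the 95% interval and filled points for an adjusted p below 0.05. Gnb5 alone has filled points, between -4.26 and -2.84, and the other members lie between -0.70 (Gpr158, atria) and 0.77 (Rgs7, ventricles).

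Gpr158 had the clearest differences among the anchors, without being called by edgeR. In atria it was at 6.92 ± 1.51 CPM in Gnb5-/- mice (lowest 4.37, median 7.38, highest 8.23), 11.6 ± 2.21 in Gnb5+/- (9.11, 11.2, 15.2) and 11.2 ± 3.16 in Gnb5+/+ (7.86, 11.2, 15.9998). Every Gnb5-/- mouse lay below the wild-type mean and below every Gnb5+/- mouse, and the wild-type range overlapped that of Gnb5-/-. The log2 difference from wild type was -0.70 (SE 0.182, 95% interval -1.05 to -0.34, edgeR adjusted p = 0.175, exact permutation p = 0.0173), and DESeq2's Wald test called it (adjusted p = 0.0276). From Gnb5+/- the difference was -0.75 (SE 0.182, edgeR adjusted p = 0.322, DESeq2 0.0295, exact permutation p = 0.00216), and Gnb5 and Gpr158 were the 2 members without overlap in this comparison, as were 0.445% of all genes. The 7 intracardiac neuron markers summed to 16.4 to 30.1 CPM in Gnb5-/-, 20.9 to 30.2 in Gnb5+/- and 14.7 to 27.4 in Gnb5+/+ atria, and the 4 sinoatrial node markers to 12.4 to 71.0, 32.6 to 66.3 and 17.3 to 49.3 CPM. Their part in the Gpr158 difference was not tested.

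In cerebellum Gpr158 was at 248.1 ± 47.9 CPM in Gnb5-/- mice (lowest 152.2, median 264.7, highest 284.0) and 316.4 ± 21.8 in Gnb5+/+ (289.0, 321.9, 349.0). The groups did not overlap, as for Gnb5 and 1.1% of all genes, and the exact permutation p was 0.00216. The edgeR difference was -0.35 (SE 0.128, adjusted p = 0.583). The lowest value was that of mouse 12, the cerebellar library that stood apart. There 10 of the 20 partner genes were below the range of the other 11 libraries, 6 above it and 4 within it. Gabbr2, a GABA-B receptor gene, was at 76.4 CPM against 273 to 336, and Kcnj6, a GIRK channel gene, at 1.74 against 11.3 to 19.1. Gnb2, a conventional β subunit gene, was at 144 CPM against 83.7 to 103. Without mouse 12 the Gpr158 difference was -0.24 with an adjusted p of 0.0484, so that 2 members were then called, with 0.359% of all genes. What set this library apart, in its markers and in its share of reads assigned to no gene (8.02%), was not tested. In hippocampus the library with the most choroid plexus message, that of Gnb5+/+ mouse 7, had a Gpr158 level of 123 CPM against 120 to 136 in the other 5 wild-type libraries (scaled over all 72 libraries). That is 1 library of another region, from which nothing follows for the cerebellum of mouse 12. In hippocampus the ratio of Gpr158 to wild type was 102% (96.5% to 108%) and in cortex 93.1% (79.0% to 110%), the latter with log2 -0.10 and, without mice 3 and 14, 0.06. The effects in cerebellum and hippocampus differed by -0.39 (SE 0.223, adjusted p = 0.904), so that a difference between regions was not shown. In ventricles, with 6 to 32 reads per Gnb5-/- library, the interval of the ratio ran from 56.4% to 201%.

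**Figure D5:**
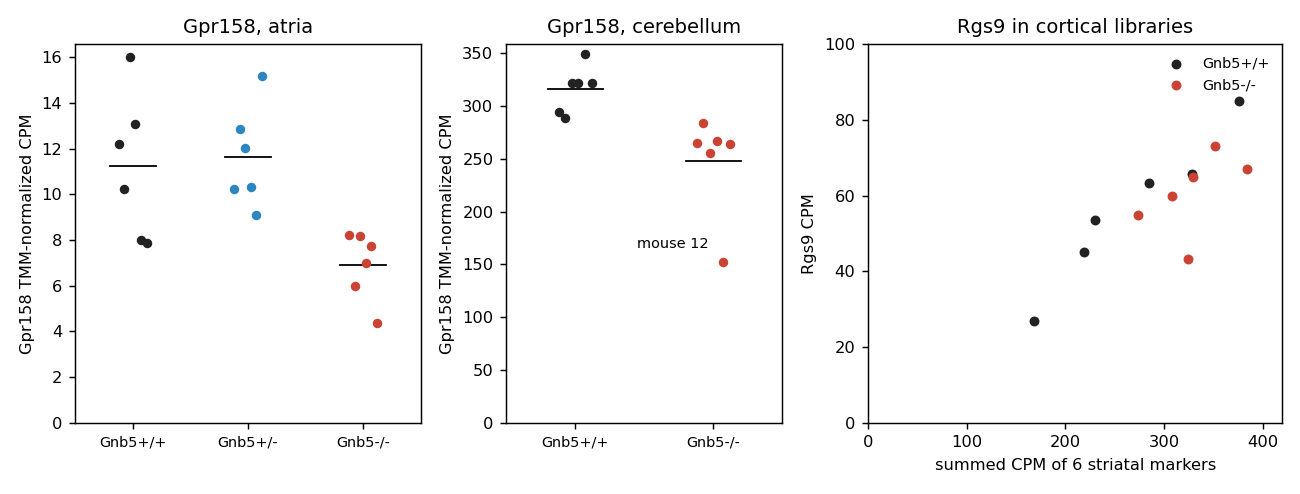
Left and middle, TMM-normalized CPM of Gpr158 by genotype in atria and cerebellum, 1 point per mouse with a line at the mean of 6; right, Rgs9 CPM against the summed CPM of 6 striatal markers in the 12 cortical libraries, both scaled over all 72 libraries and so lower than the within-cortex CPM of Rgs9 in the text. Gnb5-/- atria reach at most 8.23 CPM, mouse 12 stands at 152.2 CPM in cerebellum, and the Gnb5+/+ libraries are spread over a wider range of both axes than the Gnb5-/- libraries.

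Rgs7bp was at 4.14 ± 1.15 CPM in Gnb5-/- atria and 5.53 ± 1.84 in Gnb5+/+ (log2 -0.41, SE 0.198, adjusted p = 0.614, exact permutation p = 0.0952). The wild-type mean included the library of mouse 16 at 9.29 CPM, and without it the difference was -0.20. In the brain regions its ratio to wild type lay between 96.8% and 103%, the tightest being hippocampus with 96.5% to 110%. Rgs9bp could be tested in hippocampus (ratio 110%, interval 79.6% to 152%) and cortex (86.6%, 61.8% to 121%) alone. Elsewhere it was counted at 0 to 13 reads per library, and a difference was not detectable at this depth.

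The ratio of Gnb5 to summed R7-RGS message was also set by genotype side by side, with no test. In atria the mean ratio went from 0.759 ± 0.102 (Gnb5+/+) through 0.376 ± 0.0489 (Gnb5+/-) to 0.0434 ± 0.0104 (Gnb5-/-), with an R7-RGS sum of 14.2 ± 0.787, 14.9 ± 0.732 and 15.3 ± 0.624 RPKM. In ventricles it was 3.24 ± 0.538, 1.45 ± 0.281 and 0.124 ± 0.0404, with a sum of 3.00 ± 0.496, 3.45 ± 0.180 and 3.92 ± 0.505 RPKM. The Gnb5+/- ventricles, with the lowest ratio at 1.199, thus held more Gnb5 per R7-RGS message than wild-type atria did, the highest of which was 0.873. In Gnb5-/- cerebellum, hippocampus and cortex the ratio was 0.456 ± 0.0200, 0.146 ± 0.00890 and 0.114 ± 0.0217. Rgs6 held 74.5 ± 4.17% in Gnb5-/- atria and Rgs7 held 70.4 ± 4.37% in Gnb5-/- cerebellum.

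Of 20 genes whose products work beside these complexes (conventional β subunits, Gαi/o subunits, GIRK channels and receptors), 17 were tested in atria, 15 in ventricles and 19 in each brain region. The list was set with earlier results of these data known. In ventricles 1 was called, Drd2, the D2 dopamine receptor gene, at 3.52 ± 0.860 CPM in Gnb5-/- against 1.94 ± 0.314 in Gnb5+/+ mice (log2 0.85, adjusted p = 0.0398). Of all genes 0.188% were called there. No other was called by edgeR between genotypes in a tissue. At an unadjusted p below 0.05 it picked 3 of 15 between Gnb5-/- and Gnb5+/+ ventricles (4.78% of all genes). Between Gnb5-/- and Gnb5+/- ventricles it picked 4 of 15 (8.79%). The other comparisons gave 0 to 2 of the 15 to 19 tested (4.84% to 8.15%). The muscarinic receptor gene Chrm2 was at 523.5 ± 42.8 CPM in Gnb5-/- and 567.7 ± 92.2 in Gnb5+/+ atria, and the GIRK channel gene Kcnj5 at 342.0 ± 43.8 and 340.6 ± 13.1. In the fit over tissues 1 gene was called, Gnb3, a conventional β subunit gene, whose effect was higher in heart than in brain by 1.55 on the log2 scale (SE 0.235, adjusted p = 6.59e-05). For heart minus brain 0.408% of all genes were called. Gnb3 was at 11.5 ± 1.37 CPM in Gnb5-/- and 6.09 ± 2.501 in Gnb5+/+ ventricles (edgeR adjusted p = 0.293 in that tissue) and below 1 CPM in the brain. The study, which used DESeq2, reports both Drd2 and Gnb3 as significantly raised in Gnb5-/- ventricles. For Gnb3 the call in that tissue thus differed between the study and the edgeR test. DESeq2 values of the 20 genes are not given here.

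Differences of the genotype effect between tissues were otherwise few. Besides Gnb5 in heart against brain, no member was called, where edgeR called 0.00491% of genes for ventricles minus atria, 0.0196% for cerebellum minus cortex, 0.0246% for cerebellum minus hippocampus and 0% for hippocampus minus cortex. At an unadjusted p under 0.05 it picked 3 members for ventricles minus atria (Gpr158, Rgs7 and Rgs9bp, with 4.4% of all genes), 1 for cerebellum minus cortex (Gnb5, 2.35%), 0 for cerebellum minus hippocampus (3.45%) and hippocampus minus cortex (6.38%), and besides Gnb5 4 for heart minus brain (Rgs6, Rgs7, Rgs11 and Rgs7bp, 13.3%). The Gpr158 effect was 0.78 higher in ventricles than in atria (SE 0.350, adjusted p = 1), and the Rgs7 effect 0.70 higher (SE 0.187, adjusted p = 0.342).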

How the data were processed

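The deposited values were whole-number read counts per Ensembl gene. Per the labels and the study's methods, the authors made them from stranded total-RNA libraries read on 1 end: reads were trimmed with cutadapt 1.8, ribosomal and low-complexity reads were removed, and the rest were aligned to GRCm38 with STAR 2.5.3a and counted with HTSeq 0.9.1. The strand setting of the counting is not given in the sources used here. Reads assigned to no gene (2.85% to 17.0%) or to several genes (0.830% to 1.50%) were left out of totals and tests. Alignments that were not unique were left out too. Their share of all alignments was 32.4% to 49.5% in heart libraries and 15.5% to 27.5% in brain libraries.

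Counts were normalized with TMM and tested with edgeR 4.0.16 (quasi-likelihood, R 4.3.3) after its filter at a count minimum of 10, with Benjamini-Hochberg adjustment and a threshold of 0.05: tissues in 30 wild-type libraries, genotypes within a tissue in 18 heart or 12 brain libraries, and tissue-by-genotype effects in 60 libraries with the mouse as a block. Intervals are 95% normal intervals of the fold change. Single genes were also compared with a two-sided exact permutation test over the 924 splits of 12 mice (log2 CPM, prior count 2). RPKM used union exon lengths from GENCODE M21, which matched 53620 of the 53715 identifiers. Member levels were correlated with each of 13 summed marker lists in each tissue (log2 CPM, 100000 permutations, or all 720 for 6 libraries), 1560 relations in all, adjusted together. The edgeR fits were tested on simulated data.

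All 8 members were named in every comparison, together with partner genes called between genotypes and, for members over 1 CPM in some wild-type tissue, the 3 protein-coding genes most alike over wild-type libraries. The members and lists were chosen with earlier results of these data known. Alternatives were RLE size factors, library totals alone, no filter, robust empirical Bayes, DESeq2 1.42.0, a replicate block, the longest transcript as length, a prior count of 0.5 and leaving out 2 libraries. Leaving out each library in turn in atria, ventricles and cerebellum, and leaving out the cortices of mice 3 and 14, that of mouse 5 or the hippocampi of mice 7 and 17, were added after seeing the data. The labels give each library of a group a separate mouse, and libraries of 1 mouse deviated together (correlation of deviations from group means 0.0964 to 0.522, 59 of 60 pairs over 0.1).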

Additional observations from a re-analysis of the deposited data

Results flagged for a closer look

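In 13 of 88 combinations of member and group, 1 of the 6 mice lay apart from the others by Dixon's 95% criterion (gap to the nearest mouse over the range), where chance gives about 5%. Values are RPKM. In heart they were Gnb5 at 0.940 in Gnb5-/- atria (mouse 10), Rgs7bp at 1.46 in Gnb5+/+ atria (mouse 16), Rgs6 at 9.62 in Gnb5+/- atria (mouse 11), and Rgs9 at 0.245 and Rgs11 at 0.143 in Gnb5-/- atria (mice 1 and 14). In ventricles they were Gpr158 at 0.169 in Gnb5-/- (mouse 1) and Rgs11 at 0.224 in Gnb5+/- (mouse 6). In brain they were Gpr158 at 12.9 and Rgs6 at 1.28 in Gnb5-/- cerebellum (both mouse 12), Rgs7 at 8.43 in Gnb5-/- cortex (mouse 14), Rgs11 at 11.3 in Gnb5+/+ cortex (mouse 16), and Rgs11 at 8.74 and Rgs9bp at 0.0774 in Gnb5-/- hippocampus (both mouse 10).

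The loss of Gnb5 message in Gnb5-/- mice differed between organs, the log2 effect in heart minus that in brain being -1.18 (adjusted p = 1.18e-12, edgeR).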

How the results depend on the processing

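DESeq2 called 2 members (Gnb5 and Gpr158) in Gnb5-/- atria against both other genotypes, and over all genes 110 (41 with edgeR) in Gnb5-/-, 7 (2) in Gnb5+/- and 26 (8) in Gnb5-/- against Gnb5+/- atria, 63 (28) and, against Gnb5+/-, 69 (13) in Gnb5-/- ventricles, 49 (14) in cerebellum, 104 (29) in hippocampus and 25 (10) in cortex. Mice of different genotypes share only a replicate number (correlations -0.242 to 0.147, 4 of 54 pairs over 0.1). With a replicate block on that number 0 members and 0 genes were called in Gnb5+/- ventricles (Gnb5 adjusted p = 0.0891), 5 genes in cerebellum, 19 in hippocampus and 6 in cortex, and in cerebellum Rgs9 (-0.0486) and Rgs6 (-0.0191) turned sign, neither called. Without the cerebellum of mouse 12 and the cortex of mouse 14, 2 members and 62 genes were called in cerebellum and 22 genes in cortex, and the tissue effects gave 14 genes for ventricles minus atria (1), 9 for cerebellum minus hippocampus (5), 10 for cerebellum minus cortex (4) and 156 for heart minus brain (83, with 2 members). With RLE size factors 2 members and 88 genes were called for heart minus brain. With no replicate block of mice, 2 and 3 genes were called for ventricles minus atria and cerebellum minus hippocampus. The cause of these shifts was not tested.

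Uncalled differences that turned sign were Rgs7bp in cerebellum (0.0289), Rgs7 in cortex (0.0161) and the Rgs7bp effect in cerebellum minus cortex (0.0715) without those 2 libraries, and Rgs7bp (0.00831), Rgs11 (0.00554), Rgs7 (0.0192) and Gpr158 (0.0649) in cortex without mice 3 and 14. Between tissues, Rgs6 in cerebellum minus ventricles became 0.95 with library totals alone, Rgs9bp there -0.00393 with RLE and -0.00842 with DESeq2, and Rgs11 in cortex minus hippocampus -0.0158 with no filter. Leaving out each library in turn, members called ranged from 0 to 1 in Gnb5+/- ventricles and 1 to 2 in cerebellum (2 without mouse 12). Fold changes of uncalled members then spanned 0 in Gnb5+/- atria (Gpr158 -0.0359 to 0.19, Rgs11 -0.11 to 0.0754, Rgs9 -0.0108 to 0.34), Gnb5-/- atria (Rgs11 -0.15 to 0.0658, Rgs7 -0.0246 to 0.12), Gnb5-/- against Gnb5+/- atria (Rgs11 -0.11 to 0.0761, Rgs6 -0.0272 to 0.0453, Rgs9 -0.15 to 0.48), ventricles (Gpr158 -0.34 to 0.29 in Gnb5-/- and -0.88 to 0.00619 against Gnb5+/-, Rgs11 -0.31 to 0.28 in Gnb5+/-) and cerebellum (Rgs6 -0.0318 to 0.12, Rgs7bp -0.10 to 0.0289, Rgs9 -0.16 to 0.22). With the longest transcript as length the ratio of Gnb5 to R7-RGS was 0.642 in atria, 2.74 in cerebellum, 1.05 in hippocampus and 0.792 in cortex, Rgs7 held 69.6% in cerebellum and Rgs11 43.8% in hippocampus.

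Of the planned repeats of member fold changes, 859 kept their direction and side of the threshold, 10 lost a call, 7 gained one and 9 turned sign. Rgs9bp everywhere, and Rgs9, Rgs11 and Gpr158 in ventricles, rest on few reads and have wide intervals.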
